A study of Drosophila melanogaster
Mus musculus with 4 samples.

Results

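Ebf1 encodes early B cell factor 1, a DNA-binding transcription factor, and its locus was described here through accessible chromatin in B cell precursors with Hdac3 deleted and in wild-type precursors. The locus was taken as all sites of the deposited site table that start between 44.4 and 45.2 Mb of mouse chromosome 11 (genome build mm10), which is 48 of 69709 sites, together with the peaks called there in each library. Ebf1 runs from about 44.62 to about 45.01 Mb on the plus strand; these bounds are rounded to 10 kb, no gene annotation of the build was used, and exons, introns and start sites were not placed. By these bounds 23 sites lay upstream of the gene, 18 in it and 7 downstream.

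The cells were B220+CD43+ cells sorted from bone marrow of C57BL/6 mice 8 weeks old, a gate that takes in early B cell precursors. ATAC-seq, in which a transposase inserts adapters into open DNA, was run on 2 libraries from mice with Hdac3 deleted and 2 libraries from Hdac3+/+ (wild-type) mice. Each library began with 50000 sorted cells plus 5% Drosophila S2 cells, in both genotypes. The labels do not say how Hdac3 was deleted, in which cells, or whether replicates were separate mice, so p-values measure only the spread between these samples, which may be technical.

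Hdac3 is the histone deacetylase of the nuclear corepressor complexes that contain NCoR or SMRT. EBF1 acts early in the B lineage: with E2A, FOXO1 and PAX5 it turns on genes of the pre-B cell receptor and its signalling partners, and mice without Ebf1 make no B cells beyond the earliest precursors. The gene is long, is read from a distal and a proximal promoter, and is controlled by interleukin-7 receptor signalling, by E2A, by PAX5 and by its own product. An accessible site within or near such a gene can be a promoter or an enhancer, but accessibility alone does not tell which.

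Reads counted in sites came to 21177343 and 16132402 in Hdac3-deleted replicates 1 and 2, against 32988999 and 19017456 in wild-type replicates 1 and 2. The Ebf1 locus held 8528 and 7073 of these reads in the Hdac3-deleted libraries and 15354 and 8252 in the wild-type libraries. The lowest read number at any of its sites was 19 and 11 in the Hdac3-deleted libraries. In the wild-type libraries it was 38 and 16, at a different site. Wild-type replicate 1 was thus the deepest library. Wild-type replicate 2 stood apart on chromosome Y, with 10 peaks below 50 Mb against 0 in each other library, so results are also given with each library left out. The Hdac3 gene and B cell marker genes were not checked, since no mouse annotation was used. Values below are the authors' normalized reads per site, that is reads multiplied by 1 factor per library, unless a read count is named.

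The locus changed at a minority of its sites. Nearly all changes called by limma were losses of accessibility in Hdac3-deleted cells. The authors' own calls leaned less, with 12 lower and 6 higher. Of the 48 sites, 9 fell and 1 rose in Hdac3-deleted cells relative to wild type, and 38 did not pass the test (limma on log2(normalized reads + 1) over all 69709 sites, Benjamini-Hochberg adjusted p under 0.05). Of all sites 20.6% were called, with 11.7% higher and 8.9% lower. The share called in the locus, 20.8%, was thus near the background, while 18.8% of its sites were lower and 2.08% higher. On chromosome 11 as a whole, 331 of 4506 sites were lower and 451 higher. Without wild-type replicate 1 the locus had 5 calls (10.4%), 3 lower and 2 higher, where 9.46% of all sites were called. Without each of the other libraries it had 10, with 8 lower and 2 higher each time, against 12.2% of all sites without Hdac3-deleted replicate 1, 21.1% without Hdac3-deleted replicate 2 and 18.4% without wild-type replicate 2. The locus's median log2 fold change was -0.16, against -0.01 over all sites; it was -0.03 without Hdac3-deleted replicate 1 and -0.17 to -0.21 without each other library. In bulk cells, fewer cells with an open site and less opening per cell cannot be told apart.

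**Figure D1:**
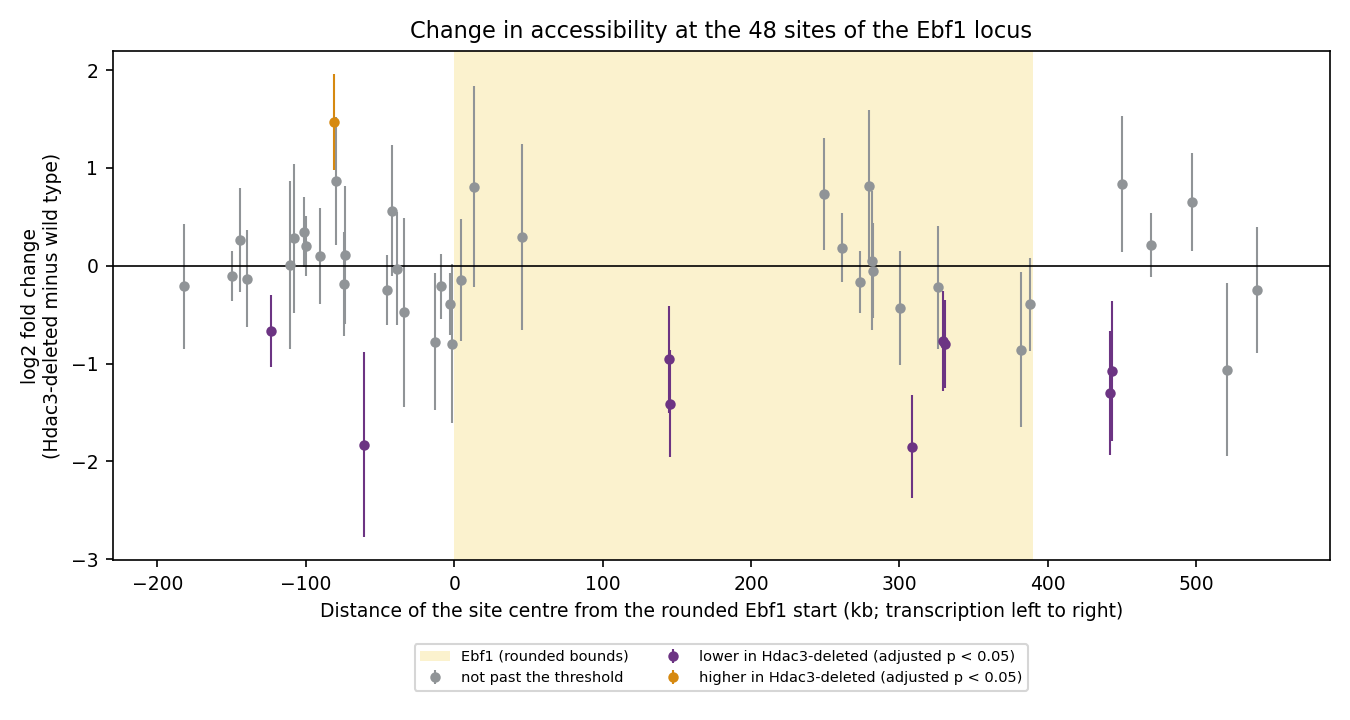
Log2 fold change (Hdac3-deleted minus wild type) of each of the 48 sites against the distance of its centre from the rounded Ebf1 start in kb. Bars are 95% intervals from limma (n = 2 libraries per genotype), shading spans Ebf1, and colour gives the call: 9 sites were lower and 1 was higher in Hdac3-deleted cells.

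Without regard to the test, both Hdac3-deleted libraries lay below both wild-type libraries at 17 of the 48 sites (35.4%) and above them at 10 (20.8%). Over all sites these shares were 30.5% and 30.1%. At the other sites of the locus the libraries of the genotypes overlapped.

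Inside the gene 5 of 18 sites (27.8%) fell and 0 rose in Hdac3-deleted cells. Over all sites 8.9% were lower and 11.7% higher. The largest fall in the gene was at chr11:44928403-44928874, a site of 472 bp toward the 3′ end of Ebf1, 308.6 kb past the rounded gene start. It held 64.9 and 63.8 normalized reads in Hdac3-deleted replicates 1 and 2, against 253 and 217 in wild-type replicates 1 and 2. The Hdac3-deleted libraries were nearly alike and both lay far below the wild-type libraries. Means were 64.4 ± 0.83 in Hdac3-deleted and 235 ± 25.7 in wild-type cells (SD, n = 2 each), so that the Hdac3-deleted mean was 0.274 of the wild-type mean (log2 fold change -1.85, SE 0.25, limma adjusted p = 0.000245). Behind these values were 65 and 48 reads in Hdac3-deleted and 381 and 191 reads in wild-type libraries.

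A pair of sites 154 bp apart, centred 144.6 and 145.2 kb past the rounded gene start, fell together. At chr11:44765012-44765420 Hdac3-deleted replicates 1 and 2 held 75.9 and 120 normalized reads, against 284 and 229 in the wild-type replicates (log2 fold change -1.41, SE 0.26, limma adjusted p = 0.00156). Its neighbour at chr11:44764369-44764858 held 74.9 and 89.0 in the Hdac3-deleted replicates and 171 and 149 in the wild-type replicates (log2 fold change -0.96, SE 0.26, limma adjusted p = 0.0161). At each of these sites all Hdac3-deleted values lay under all wild-type values. Such close sites may be parts of 1 open region and are not independent. The pair stood alone, with gaps of 98869 bp before it and 103917 bp after it.

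A second pair toward the 3′ end of the gene, 889 bp apart, also fell. At chr11:44950337-44950753 Hdac3-deleted replicates 1 and 2 held 176 and 243 normalized reads and wild-type replicates held 414 and 314 (log2 fold change -0.80, SE 0.21, limma adjusted p = 0.0135). At chr11:44949179-44949448 the values were 102 and 114 in Hdac3-deleted and 205 and 167 in wild-type replicates (log2 fold change -0.77, SE 0.24, limma adjusted p = 0.0327). The groups did not overlap at either site. In the stretch between the isolated pair and these sites the gene was not lower throughout. Of the 4 sites from 44.8 to 44.9 Mb, 3 had both Hdac3-deleted libraries above both wild-type libraries, and 0 were called. The most open site in the gene, chr11:44892858-44893554, lay in this stretch. It held 450 and 521 in Hdac3-deleted and 588 and 500 in wild-type replicates, overlapping levels with a log2 fold change of -0.16 (95% interval -0.48 to 0.15, limma adjusted p = 0.491).

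**Figure D2:**
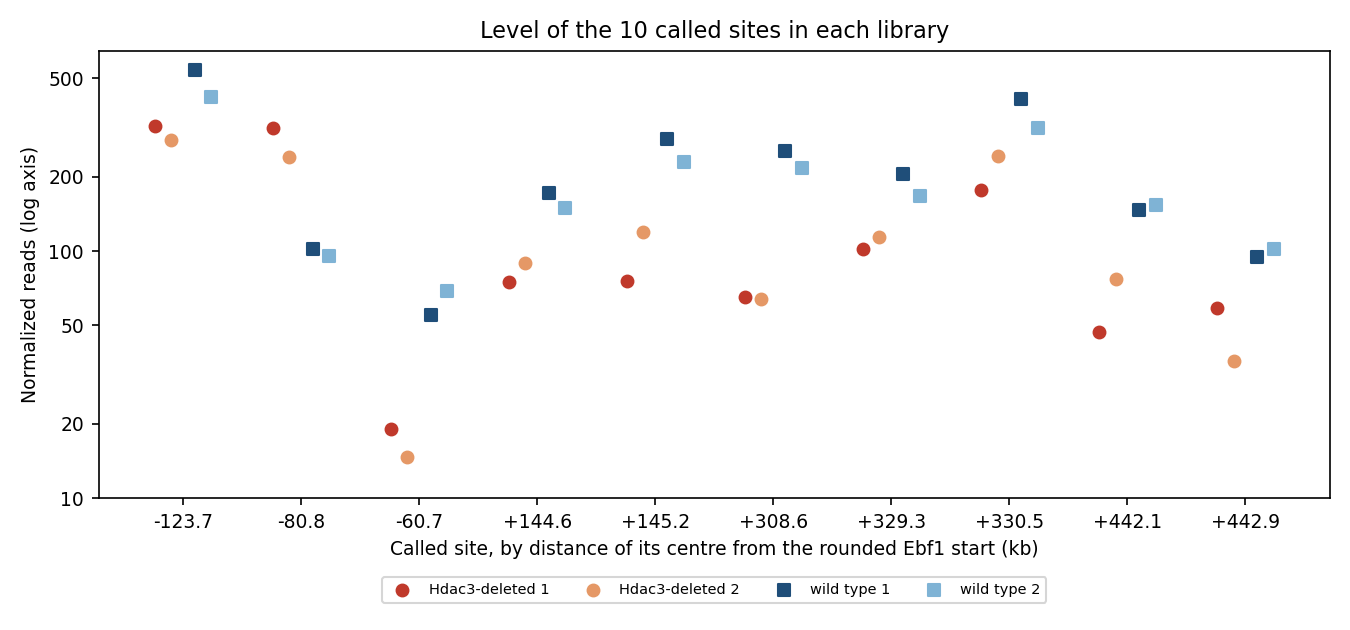
Normalized reads (log axis) of the 10 called sites in each library, ordered by the distance of the site centre from the rounded Ebf1 start in kb; circles are the Hdac3-deleted and squares the wild-type libraries. At 9 sites both circles lie below both squares, and at the site at -80.8 kb both lie above.

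The sites nearest the start of Ebf1 did not pass the test, although each was lower on average in Hdac3-deleted cells. The site at chr11:44616887-44617581 was among the 5 most open of the locus. It held 458 and 511 normalized reads in Hdac3-deleted replicates 1 and 2, against 711 and 569 in wild-type replicates 1 and 2. The groups did not overlap; the log2 fold change was -0.39 (95% interval -0.71 to -0.08, limma adjusted p = 0.0729). The value turned on single libraries: the site passed without wild-type replicate 2 at -0.55 (limma adjusted p = 0.0263), but was at -0.23 without wild-type replicate 1 (limma adjusted p = 0.531). The small site nearest to the rounded start, chr11:44618299-44618549, held 97.9 and 35.9 in Hdac3-deleted and 107 and 101 in wild-type replicates. There Hdac3-deleted replicate 2 alone was low (log2 fold change -0.80, 95% interval -1.61 to 0.02, limma adjusted p = 0.161), and the site was called at -1.51 without Hdac3-deleted replicate 1 (limma adjusted p = 0.00767) but was at -0.085 without Hdac3-deleted replicate 2 (limma adjusted p = 0.887). A broad site further upstream, chr11:44610974-44611870, singled out after its values were seen because it is the next broad site before the gene, held 370 and 417 in Hdac3-deleted and 464 and 446 in wild-type replicates (log2 fold change -0.21, 95% interval -0.54 to 0.12, limma adjusted p = 0.377). The first site in the gene, chr11:44624685-44624962, lay 4.8 kb past the rounded start and was named after its values were seen. It held 101 and 77.1 in Hdac3-deleted and 82.4 and 116 in wild-type replicates. The genotypes overlapped there (log2 fold change -0.15, 95% interval -0.77 to 0.48, limma adjusted p = 0.782). Which of these sites hold the promoters was not determined.

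At the other end of the gene, the site nearest the rounded end, chr11:45008085-45008421, held 136 and 138 normalized reads in Hdac3-deleted and 185 and 176 in wild-type replicates. All 4 values were tight within a genotype and apart between them, but the log2 fold change of -0.40 did not pass (95% interval -0.87 to 0.08, limma adjusted p = 0.241).

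Upstream of the gene changes went both ways, with 2 of 23 sites lower (8.70%) and 1 higher (4.35%). Over all sites 8.9% were lower and 11.7% higher, so the share of lower sites there was near the background. The only called rise of the locus was at chr11:44538895-44539530, at -80.8 kb from the rounded gene start. It held 315 and 239 normalized reads in Hdac3-deleted replicates 1 and 2, against 102 and 95.3 in wild-type replicates 1 and 2. The Hdac3-deleted mean was 2.81 times the wild-type mean (277 ± 53.4 in Hdac3-deleted against 98.5 ± 4.47 in wild-type cells, SD, n = 2 each; log2 fold change 1.47, SE 0.23, limma adjusted p = 0.000626). The next site, 756 bp further on at chr11:44540286-44540624 and named after its values were seen, held 114 and 116 in Hdac3-deleted and 49.1 and 79.4 in wild-type replicates. It did not overlap between genotypes but missed the threshold (log2 fold change 0.87, 95% interval 0.21 to 1.52, limma adjusted p = 0.0575). With a library left out its log2 fold change was 0.53 to 1.21, and it passed only without wild-type replicate 2 (limma adjusted p = 0.0211).

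The lower sites upstream were chr11:44559132-44559378, at -60.7 kb from the rounded start, and chr11:44496027-44496657, at -123.7 kb. At the nearer site Hdac3-deleted replicates held 19.0 and 14.6 normalized reads and wild-type replicates held 55.1 and 69.2 (log2 fold change -1.83, SE 0.45, limma adjusted p = 0.00901). This is a weak site, with 19 and 11 reads in Hdac3-deleted and 83 and 61 reads in wild-type libraries, and its mean level over all libraries was at percentile 4.1 of all sites. At the farther site the values were 322 and 280 in Hdac3-deleted and 539 and 421 in wild-type replicates (log2 fold change -0.66, SE 0.17, limma adjusted p = 0.0134), the smallest change among the called sites.

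The upstream flank also held the most open site of the window, and it was not called. The widest site, chr11:44469666-44471003 (1338 bp), was also the most open, with 739 and 854 normalized reads in Hdac3-deleted and 816 and 894 in wild-type replicates (log2 fold change -0.10, 95% interval -0.36 to 0.16, limma adjusted p = 0.608). The genotypes overlapped there. Another of the 5 most open sites, chr11:44519763-44520600, held 505 and 583 in Hdac3-deleted and 474 and 470 in wild-type replicates (log2 fold change 0.20, 95% interval -0.11 to 0.51, limma adjusted p = 0.371). Both Hdac3-deleted values lay above both wild-type values there, by a difference that did not pass. Genes other than Ebf1 may lie in this flank; they were not assigned.

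**Figure D3:**
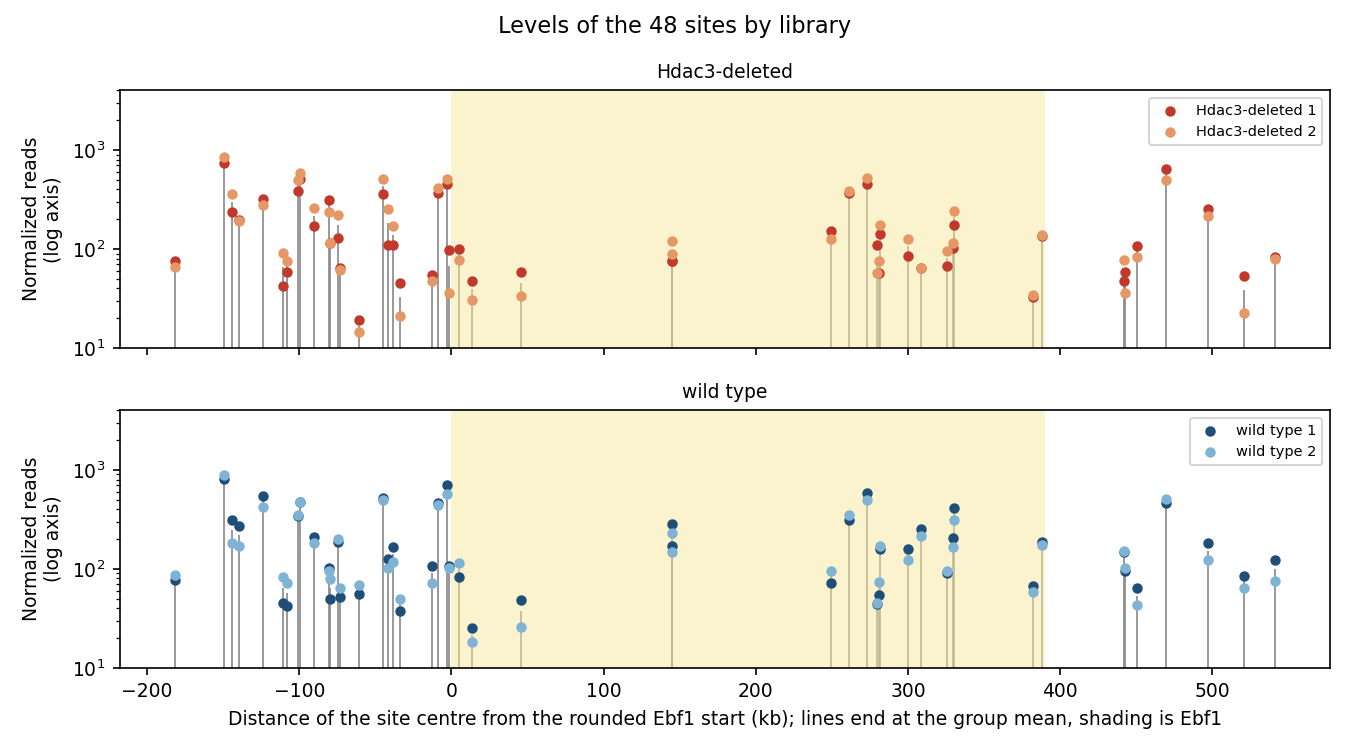
Normalized reads (log axis) of the 48 sites against the distance of the site centre from the rounded Ebf1 start in kb, for the Hdac3-deleted libraries (upper panel) and the wild-type libraries (lower panel). Points are libraries, lines end at the group mean and shading spans Ebf1; gaps of 98869 and 103917 bp flank the isolated pair centred at 144.6 and 145.2 kb.

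Downstream of the gene, another pair of lower sites lay 374 bp apart. At chr11:45061841-45062334 Hdac3-deleted replicates 1 and 2 held 47.0 and 77.1 normalized reads and wild-type replicates held 147 and 153 (log2 fold change -1.30, SE 0.30, limma adjusted p = 0.00637). At chr11:45062708-45063182 the values were 58.9 and 35.9 in Hdac3-deleted and 94.3 and 102 in wild-type replicates (log2 fold change -1.08, SE 0.34, limma adjusted p = 0.0329). The remaining 5 downstream sites were not called. The most open of them, chr11:45089222-45090055, held 641 and 497 in Hdac3-deleted and 464 and 513 in wild-type replicates, with overlapping levels (log2 fold change 0.21, 95% interval -0.12 to 0.54, limma adjusted p = 0.379).

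The called sites differed in how far they rested on single libraries. With each library left out in turn, the sites at chr11:44538895-44539530, chr11:44765012-44765420, chr11:44928403-44928874 and chr11:45061841-45062334 passed in all 4 fits with their direction kept. Of these, chr11:44765012-44765420 and chr11:45061841-45062334 missed the threshold when the prior variance had no trend (limma adjusted p = 0.0555 and 0.0608); only 5.34% of all sites were called in that fit. The site at chr11:44496027-44496657 was lost without wild-type replicate 1, and that at chr11:44559132-44559378 without either wild-type replicate. The sites at chr11:44764369-44764858, chr11:44949179-44949448 and chr11:44950337-44950753 were lost without wild-type replicate 1 and without Hdac3-deleted replicate 1. The site at chr11:45062708-45063182 was lost in 3 of the 4 fits and held only without Hdac3-deleted replicate 1. Each such fit leaves 1 library in a genotype and takes its spread from the remaining libraries.

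The lower sites were neither the broadest nor the most open of the locus. They were 247 to 631 bp wide (median 472 bp, against 349.5 bp for the sites that did not pass) and had mean levels of 39.5 to 391 normalized reads (median 147, against 118). Over all 69709 sites the medians were 488 bp and 208 normalized reads for the lower sites and 343 bp and 120 for those not passing. Among the 9 lower sites the median log2 fold change was -1.08, against -0.89 among all 6202 lower sites of the table.

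Of 9 neighbouring pairs of sites less than 2 kb apart, 7 had fold changes of the same sign. The pairs are not all separate, since chr11:44901111-44901337 is shared between pairs. The share among close neighbours over all sites was not computed, so this was not read as particular to the locus. In 3 of the pairs both sites were called, each time lower. These 3 pairs hold 6 of the 9 lower sites, so the falls come from 6 separate places in the window. The site spacing was uneven, from 154 to 103917 bp between neighbours (median 6840 bp), with 4 gaps over 50 kb, of which the largest flank the isolated pair inside the gene. The window's 48 sites compare with a median of 21 in 2805 windows of 800 kb that hold a site; 85.9% of these windows had fewer.

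Averaged over segments, the gene itself was lower and the upstream flank was close to level. In the gene the mean log2 level was 6.66 and 6.70 in Hdac3-deleted replicates 1 and 2, against 7.03 and 6.92 in wild-type replicates 1 and 2. Both Hdac3-deleted values lay below both wild-type values, with a difference of -0.29 between means of 6.68 ± 0.03 in Hdac3-deleted and 6.97 ± 0.08 in wild-type cells (SD, n = 2 each). Upstream the means were 7.28 ± 0.09 in Hdac3-deleted and 7.36 ± 0.01 in wild-type cells, a difference of -0.08 within the spread of the Hdac3-deleted libraries. There too both Hdac3-deleted values (7.21 and 7.34) lay below both wild-type values (7.36 and 7.35), so this separation was not particular to the gene. Downstream they were 6.66 ± 0.23 in Hdac3-deleted and 6.95 ± 0.19 in wild-type cells, a difference of -0.28, and the libraries of the genotypes overlapped. By summed normalized reads the downstream flank was not lower. The Hdac3-deleted mean of the sums was 1.01 of the wild-type mean downstream, against 0.783 in the gene and 0.970 upstream. The gene's mean level relative to that upstream was -0.55 and -0.64 on the log2 scale in Hdac3-deleted and -0.34 and -0.43 in wild-type libraries. These do not overlap, and the exact two-sided permutation p of 0.333 is the smallest that 2 libraries against 2 allow.

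In bins of 100 kb the difference changed sign along the gene. The bin from 44.7 to 44.8 Mb, which holds only the isolated pair, had mean log2 levels of 6.26 and 6.70 in Hdac3-deleted and 7.79 and 7.54 in wild-type libraries, a difference of -1.18. The next bin, from 44.8 to 44.9 Mb, had 7.84 and 7.62 in Hdac3-deleted and 7.30 and 7.39 in wild-type libraries, a difference of 0.39 in the other direction over 4 sites. From 44.9 to 45.0 Mb the levels were 6.53 and 6.88 in Hdac3-deleted and 7.34 and 7.23 in wild-type libraries, a difference of -0.58 over 7 sites. The genotypes did not overlap in these bins, nor in the bin from 45.0 to 45.1 Mb (difference -0.43 over 6 sites); the bins were not tested.

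**Figure D4:**
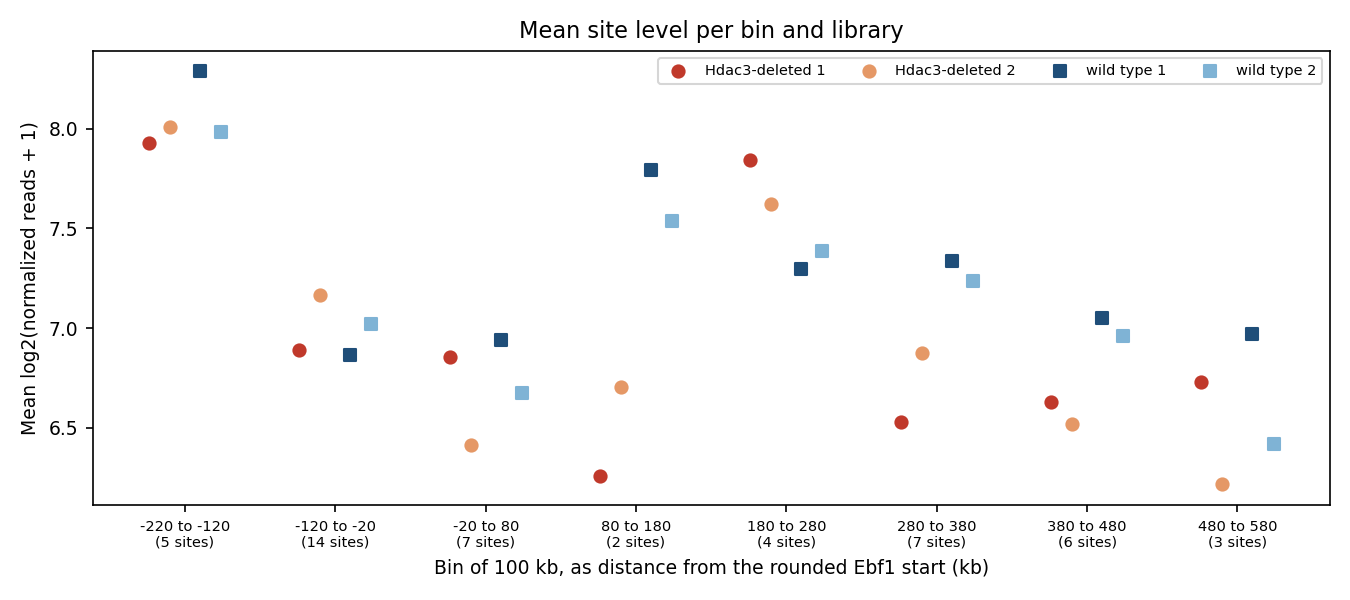
Mean log2(normalized reads + 1) of the sites in each 100-kb bin of the window for each library, with bins given as distance from the rounded Ebf1 start in kb; circles are Hdac3-deleted and squares wild-type libraries. The Hdac3-deleted libraries lie below in the bin that holds 2 sites (difference -1.18) and above in the next (0.39).

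As a whole the locus was slightly lower in Hdac3-deleted cells, but not past the threshold. Its mean log2 level was 6.95 and 6.98 in Hdac3-deleted replicates 1 and 2, against 7.20 and 7.11 in wild-type replicates 1 and 2, without overlap. In a fit over 2136 windows of 800 kb with at least 8 sites each, the log2 fold change of the locus was -0.19 (95% interval -0.35 to -0.02; limma adjusted p = 0.0828). In that fit 28.1% of windows passed, and the median window had a log2 fold change of 0.04; 257 windows had a lower one than the locus. With only the sites between the gene bounds kept in this window, the log2 fold change was -0.29 (limma adjusted p = 0.0346). Summed over the 48 sites, normalized reads were 8520 and 9396 in Hdac3-deleted and 10197 and 9362 in wild-type replicates. The sums of the genotypes overlap, since Hdac3-deleted replicate 2 exceeded wild-type replicate 2, (8958 ± 620 in Hdac3-deleted against 9779 ± 591 in wild-type cells, SD, n = 2 each; exact two-sided permutation p = 0.667, of which the smallest possible is 0.333).

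Peaks called in each library by itself gave a similar map. The window held 41 and 41 peaks in Hdac3-deleted replicates 1 and 2 and 51 and 43 in wild-type replicates 1 and 2, or 0.0660% and 0.0616% of all peaks of the Hdac3-deleted lists and 0.0655% and 0.0653% of those of the wild-type lists. The share of peaks in the window was thus alike in all libraries. The peaks covered 13974 and 15245 bp in Hdac3-deleted and 19038 and 15772 bp in wild-type libraries. Of the 48 sites 30 (62.5%) had a peak in all 4 libraries, against 65.4% of all sites. At these 30 sites the summits of the strongest peak of each library lay within 100 bp of each other in 27 cases (median range 44 bp), so at these sites the open points lay close together in both genotypes.

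At 5 sites a peak was called in each wild-type library but in no Hdac3-deleted library (10.4%, against 8.84% of all sites), and 1 site had the opposite pattern (2.08%, against 4.35%). Of the 5, chr11:44559132-44559378 and chr11:45062708-45063182 were called lower, as above. The others were not called. They were chr11:44606957-44607208, just before the gene, with 54.9 and 47.8 normalized reads in Hdac3-deleted and 108 and 72.6 in wild-type replicates; chr11:45002086-45002301, near its 3′ end, with 33.0 and 34.5 in Hdac3-deleted and 66.4 and 57.9 in wild-type replicates; and chr11:45140575-45140831, downstream, with 54.0 and 22.6 in Hdac3-deleted and 85.0 and 64.7 in wild-type replicates. In all 3 the genotypes did not overlap, and the log2 fold changes of -0.77, -0.86 and -1.06 had limma adjusted p of 0.111, 0.119 and 0.0842. Peaks come from the same reads, so choosing sites by peak pattern favours this separation and its direction, which add no support. The downstream one moved most with the libraries, at -1.67 without Hdac3-deleted replicate 1 (called, limma adjusted p = 0.0124) and -0.45 without Hdac3-deleted replicate 2 (limma adjusted p = 0.443). The one just before the gene was at -0.49 without wild-type replicate 1 (limma adjusted p = 0.617). The site with peaks only in the Hdac3-deleted libraries, chr11:44546329-44546557, held 63.9 and 61.1 in Hdac3-deleted and 51.8 and 64.7 in wild-type replicates. Its levels overlapped (log2 fold change 0.11, 95% interval -0.60 to 0.82, limma adjusted p = 0.860), so the peak pattern there had no counterpart in the read levels.

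The site with the largest fall inside the gene shows what the peak lists hold. At chr11:44928403-44928874 no peak was called in Hdac3-deleted replicate 1, and the peak of Hdac3-deleted replicate 2 had an enrichment of 5.88-fold over its own background, against 9.14-fold and 9.71-fold in wild-type replicates 1 and 2. These enrichments are the authors' values and are set within each list. Of the 9 lower sites 4 had peaks in all libraries, 3 lacked 1 in Hdac3-deleted replicate 1 and 2 lacked them in both Hdac3-deleted libraries. By fold enrichment the strongest peak of the window, in each library, was at the downstream site chr11:45089222-45090055, with enrichments of 14.8-fold and 15.9-fold in Hdac3-deleted and 12.7-fold and 13.6-fold in wild-type replicates; by q-value or pileup other sites led in some libraries.

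**Figure D5:**
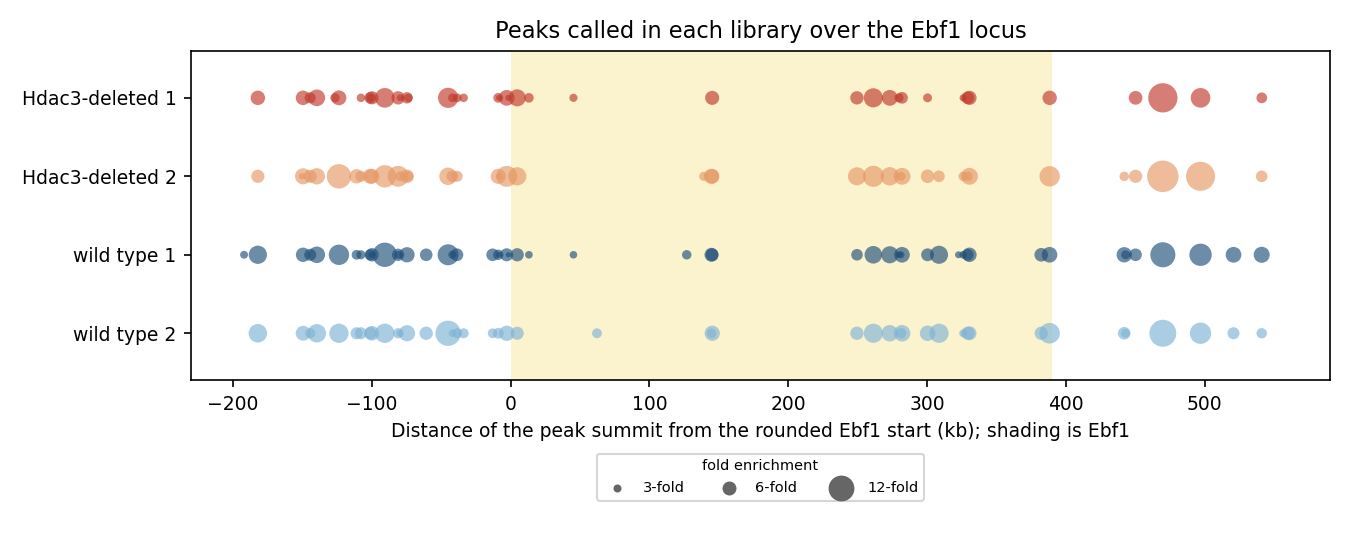
Peaks called in each library over the window, by distance of the summit from the rounded Ebf1 start in kb; rows are libraries, circle area grows with the square of the authors' fold enrichment, and shading spans Ebf1. The window held 41, 41, 51 and 43 peaks in the rows from top to bottom, and 30 of the 48 sites carry a peak in every library.

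The authors' deposited table called more sites of the locus, with a weaker lean to losses. It gave 18 of the 48 sites an FDR under 0.05, where 25.1% of all sites had one. Of the 18, 12 were lower and 6 higher in Hdac3-deleted cells, against 9 lower and 1 higher in the limma fit. Over all 69709 sites it called 6829 lower and 10668 higher. All 10 sites called here were among the 18 with the same direction, which is 55.6% of the 18. The site at chr11:44928403-44928874 has a log2 fold of -1.87 and an FDR of 8.14e-10 in the authors' deposited table. The higher sites that the authors' deposited table adds include chr11:44899676-44899864 inside the gene, named here after its values were seen, with a log2 fold of 0.90 and an FDR of 0.0085. That site held 110 and 57.1 normalized reads in Hdac3-deleted and 43.8 and 45.4 in wild-type replicates, and in the limma fit its adjusted p was 0.133. It was called without Hdac3-deleted replicate 2 (log2 fold change 1.28, limma adjusted p = 0.0222) and was at 0.35 without Hdac3-deleted replicate 1 (limma adjusted p = 0.652).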

How the data were processed

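ATAC-seq of 2 Hdac3-deleted and 2 wild-type libraries was analysed, grouped and numbered by sample title. Tools named in the submitters' processing notes are edgeR, SAMtools, DiffBind 1.10.2, MACS2 2.0.10 and Bowtie2 2.2.4, and the builds are mm10 and dm3. Each library had its own peak calling by MACS2 2.0.10.20131216 without a control, at a q-value cutoff of 0.001 and a tag extension of 140 bp, per the file headers; the input's name reads as shifted and freed of duplicates. Per the file headers, the deposited peak lists give a pileup (signal), a fold enrichment (ratio to the library's own background) and −log10 p-values and q-values. Read numbers carry counting error only.

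The deposited site table holds 1 signal column per library (normalized reads), the log2 of group means and their difference, and p-values of the authors' own comparison. Within a library every value was a whole multiple of 1 step (0.999 and 1.33 in Hdac3-deleted, 0.664 and 1.13 in wild-type replicates 1 and 2; 100% of values within 0.01 reads), which gave read numbers. Site starts are printed as in the table; 100% lie 1 bp before a peak start. No source used here states how sites were merged, but every site overlaps a peak in at least 2 of the 4 libraries. Shares of peak patterns are thus shares among such sites. No fly chromosome arm was found (0 features), so no scaling by the S2 cells was made and an overall shift cannot be seen.

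All 69709 sites were fitted without a filter in limma 3.58.1 under R 4.3.3. The response was log2(value + 1), the prior variance had a trend, and Benjamini-Hochberg adjustment over all sites was applied at 0.05; fold changes understate low sites. The fit was also run on simulated reads given the same extra spread at every site, which cannot give the share of false calls in the real data. Windows of 800 kb with at least 8 sites were fitted likewise on mean log2 levels. Count models were laid down as alternatives but not run, because a second check for whole reads passed only for replicate 2 of each genotype; read numbers of replicate 1 of each rest on the step alone. Named sites were, per direction, up to 10 called sites by size of change, the 5 most open, the widest, those nearest the gene's ends and those with peaks in 1 genotype only; any other is marked as chosen after its values were seen. The locus, rules and lists were chosen with earlier results of these data known. Pathway genes and cell type markers needed a mouse annotation and were not analysed here.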

Additional observations from a re-analysis of the deposited data

How the results depend on the processing

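The locus had 10 called sites, 1 higher and 9 lower in Hdac3-deleted cells, also with median-of-ratios size factors, library totals, TMM factors, cyclic loess, other pseudocounts and the replicate block. It had 7 (6 lower) when scaled to the tags left after filtering (12.5% of all sites called), and 9 (8 lower) at a mean of at least 50. At a threshold of 0.01 there were 5 (4 lower; 9.24% of all sites), at 0.1 there were 16 (5 higher, 11 lower; 27.7%), and with no trend in the prior variance 3 (1 higher, 2 lower; 5.34%). With each library left out in turn, calls ranged from 5 to 10, higher calls from 2 to 2 and lower calls from 3 to 8, while 9.46% to 21.1% of all sites were called. The mean level of the locus (log2 fold change -0.19) passed with cyclic loess (-0.22, limma adjusted p = 0.0417), at a threshold of 0.1 (-0.19) and with only the sites between the gene bounds (-0.29); the cause was not tested. It ranged from -0.14 to -0.23 with a library left out, and did not pass with the replicate block (limma adjusted p = 0.142) or when scaled to tags. Same-numbered libraries deviated against each other (correlation -0.10). No label states a pairing, and titles and column letters disagree for the Hdac3-deleted libraries. There replicate 1 is lettered B and replicate 2 is lettered A, while wild-type replicates 1 and 2 are A and B. The crossed block, added after seeing the data, joins libraries of the same letter. It gave 17 calls (5 higher, with 27.8% of all sites called). With it the mean level of -0.19 passed. Among the uncalled sites that the naming rule picked, 2 changed sign with libraries left out. The log2 fold change of chr11:44469666-44471003 ranged from -0.21 to 0.000625, and that of chr11:44546329-44546557 from -0.048 to 0.27. Other uncalled sites changed sign too, such as chr11:44475304-44475843 (from -0.12 to 0.65) and chr11:44624685-44624962 (from -0.39 to 0.098). With a library left out the difference in mean log2 level ranged from -0.23 to -0.34 in the gene, from -0.015 to -0.15 upstream and from -0.12 to -0.45 downstream, and the ratio of summed reads from 0.871 to 0.961. Stricter peak limits left a mean of 29.0 to 32.5 peaks in Hdac3-deleted and 35.5 to 40.0 in wild-type libraries. The planned quasi-likelihood and Wald tests of counts were not run. Depth limits the weakest called site, which rests on 19 and 11 reads in the Hdac3-deleted libraries.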

Other observations

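Each library had a few peaks in the window outside the 48 sites, 1 and 1 in Hdac3-deleted replicates 1 and 2 and 3 and 1 in wild-type replicates 1 and 2. None of these 6 overlapped another in a second library. They were weak, with the authors' fold enrichments of 4.73 and 4.54 in the Hdac3-deleted libraries, 3.98, 4.78 and 3.48 in wild-type replicate 1 and 4.97 in wild-type replicate 2.

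Of the sites between adjusted p of 0.05 and 0.1 (limma), 4 had a higher mean in Hdac3-deleted cells and 2 a lower one. Over all sites, higher calls went from 8133 to 10517 between these thresholds and lower calls from 6202 to 8762. The few sites of the locus in this range were too few to give a direction. The higher ones not described above, named after their values were seen, were chr11:44869337-44869702 inside Ebf1 (151 and 128 normalized reads in Hdac3-deleted replicates, against 72.4 and 95.3 in wild-type replicates) and the downstream sites starting at 45070022 and 45116659 (log2 fold changes of 0.84 and 0.65). The last passed without wild-type replicate 1 (0.93, limma adjusted p = 0.0226) and was at 0.37 without wild-type replicate 2 (limma adjusted p = 0.419).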
